A study of Saccharomyces cerevisiae with 12 samples.

Results

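The small subunit processome and the small nucleolar ribonucleoprotein particles (snoRNPs) are the nucleolar machines that start building the small ribosomal subunit, and the genes described here encode 51 of their proteins in Saccharomyces cerevisiae. The 51 genes were chosen by name, from their membership in these particles, with earlier results of these data known. Of these, 50 had a probe set annotated to their symbol alone, out of 5656 genes tested, and NOP10 was not analysed here. Each gene was read from 1 probe set, the one with the highest mean over the 12 arrays.

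Transcripts of 2 strains in 2 media were hybridised to 12 Affymetrix Yeast S98 arrays, with 3 separate cultures a group. The wild type MLY61 and the deletion strain MLY132 are diploids of mating type a/alpha, and both are homozygous for ura3-52. MLY132 also lacks both copies of GPA2, each replaced with a G418 resistance marker, and it stands for the deletion as a single strain. Cells were grown in YPM, a rich maltose medium, to an OD600 of 1.0 and collected by filtering, or moved by filtering to SLAM, a defined medium with 2% maltose and 50 µM ammonium sulfate, for 2 h at 30 °C. The media therefore differed in more than nitrogen, and only the SLAM cells were moved to a new medium.

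In yeast, the small subunit processome forms on the nascent ribosomal RNA precursor. Its UTP-A complex binds the 5′ end of the precursor first, the UTP-B complex and the U3 box C/D snoRNP follow, and enzymes then drive cleavage and release. Box C/D snoRNPs guide 2′-O-methylation of ribosomal RNA and box H/ACA snoRNPs guide pseudouridylation, each with its own set of core proteins. Genes for ribosome assembly are known to be transcribed together in yeast, under control of nutrient signals through TOR and protein kinase A. GPA2 encodes a G protein alpha subunit that acts upstream of cAMP and protein kinase A.

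GPA2 read 9.70 to 11.10 on the log2 scale on the wild-type arrays and 5.14 to 5.60 on the deletion arrays, in the direction of the strain labels. The highest deletion reading, 5.60, was taken as a mark of background, although background can differ between probe sets. Of genes that a/alpha diploids repress, 3 of 6 haploid a cell markers, 1 of 4 haploid alpha cell markers and 4 of 7 haploid-specific genes had a median at or under 5.60, while MFA2, STE4 and SAG1 had medians of 8.44, 8.21 and 8.18. Array medians lay between 7.33 and 7.50, so the deposited values are relative within an array, and the number of arrays limits the precision. Replicate numbers are names only.

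In the deletion strain, transcripts of all 50 measured genes were lower in SLAM than in YPM, and in the wild type 26 of the 50 passed as lower. A gene passed when its adjusted p, from limma with Benjamini-Hochberg adjustment over all 5656 genes, was below 0.05. The median log2 change was -2.08 in the deletion strain and -1.29 in the wild type, where the median over all genes was 0.01 and -0.05. As a background, 14.8% of all genes passed as lower in the deletion strain and 7.34% in the wild type. None of the 50 was higher in SLAM in either strain, where 13.4% of all genes passed as higher in the deletion strain and 5.23% in the wild type. RNA was taken from whole cultures, so fewer cells with a transcript and less of it per cell cannot be told apart.

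**Figure D1:**
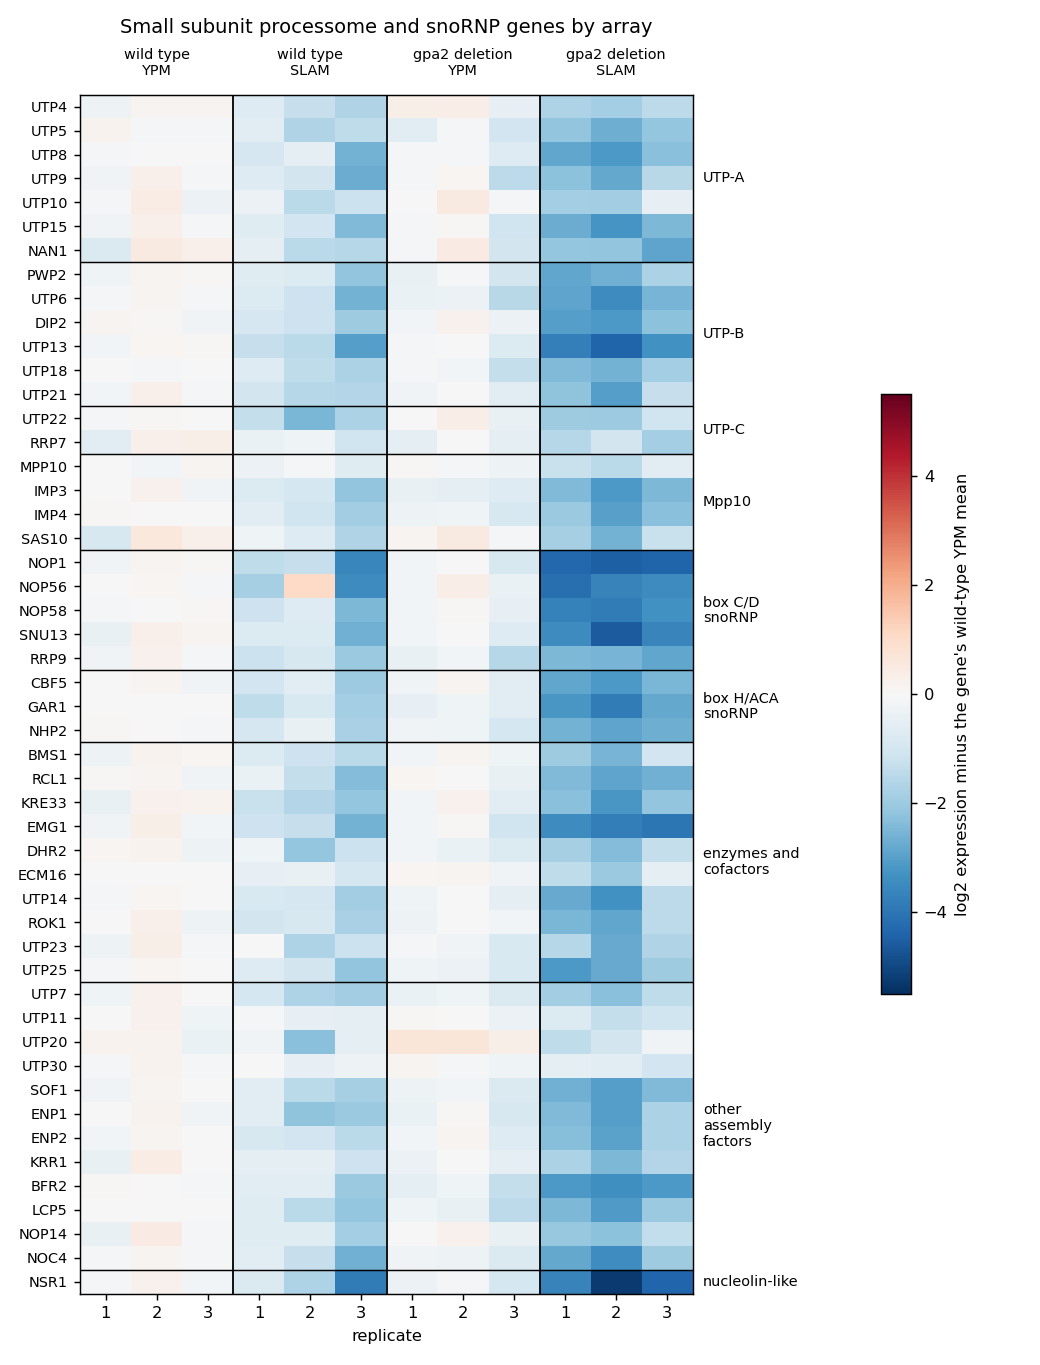
Log2 expression of each measured gene on each of the 12 arrays, minus that gene's wild-type YPM mean, with genes in rows by role and replicates in columns by group. Blue marks values below that mean. The deletion SLAM columns are the darkest, wild-type SLAM replicate 3 is darker than the other 2 of its group, and NOP56 on wild-type SLAM replicate 2 is a red cell in a blue column.

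The arrays of the deletion strain did not overlap between media for any of the 50 genes, all lower in SLAM, against 21.7% of all genes. In the wild type 39 of the 50 did not overlap and were lower, against 20.4% of all genes. The estimate was at least 2-fold lower for 47 of the genes in the deletion strain, all of which passed, and for 41 in the wild type, of which 26 passed. Over all 5656 genes, 737 estimates in the deletion strain and 508 in the wild type were at least 2-fold lower, passed or not. NOP1 had the lowest estimate in the deletion strain (log2 -4.03, SE 0.49) and NSR1 in the wild type (-2.10, SE 0.63), and UTP30 the smallest change in both (-0.67, SE 0.22 and -0.25, SE 0.22). Among the 100 genes with the lowest changes of all 5656, 10 were members in the deletion strain and 6 in the wild type. NOP1, NSR1 and NOP56 ranked 2, 3 and 7 from the lowest in the deletion strain.

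The wild-type count rested on single arrays. It was 26 with all arrays, 9, 0 and 2 when wild-type YPM replicate 1, 2 or 3 was left out, 2 when wild-type SLAM replicate 3 was left out, and 15 when deletion SLAM replicate 1 was left out, whose group enters through the shared spread. Of all genes, 12.6% were called in either direction with all arrays. Without these arrays, in the same order, 6.91%, 1.1%, 2.71%, 1.89% and 8.8% were called. Each of the 26 wild-type calls thus ended without wild-type YPM replicate 2, and each but those of UTP22 and NOP1 without wild-type SLAM replicate 3. The median change of the 50 genes, by contrast with their count, stayed between -1.54 and -0.92. In the deletion strain 43 to 50 genes passed with any 1 array left out, and 42 passed each time. The 8 others were DHR2, MPP10, RRP7, UTP9, UTP10, UTP20, UTP23 and UTP30. Without wild-type SLAM replicate 2 and deletion YPM replicate 3 together, 36 and 50 genes passed as lower in the wild type and the deletion strain. In that setting 27% of all genes were called in the wild-type comparison, against 12.6% with all arrays. The share for the deletion strain is not given here.

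**Figure D2:**
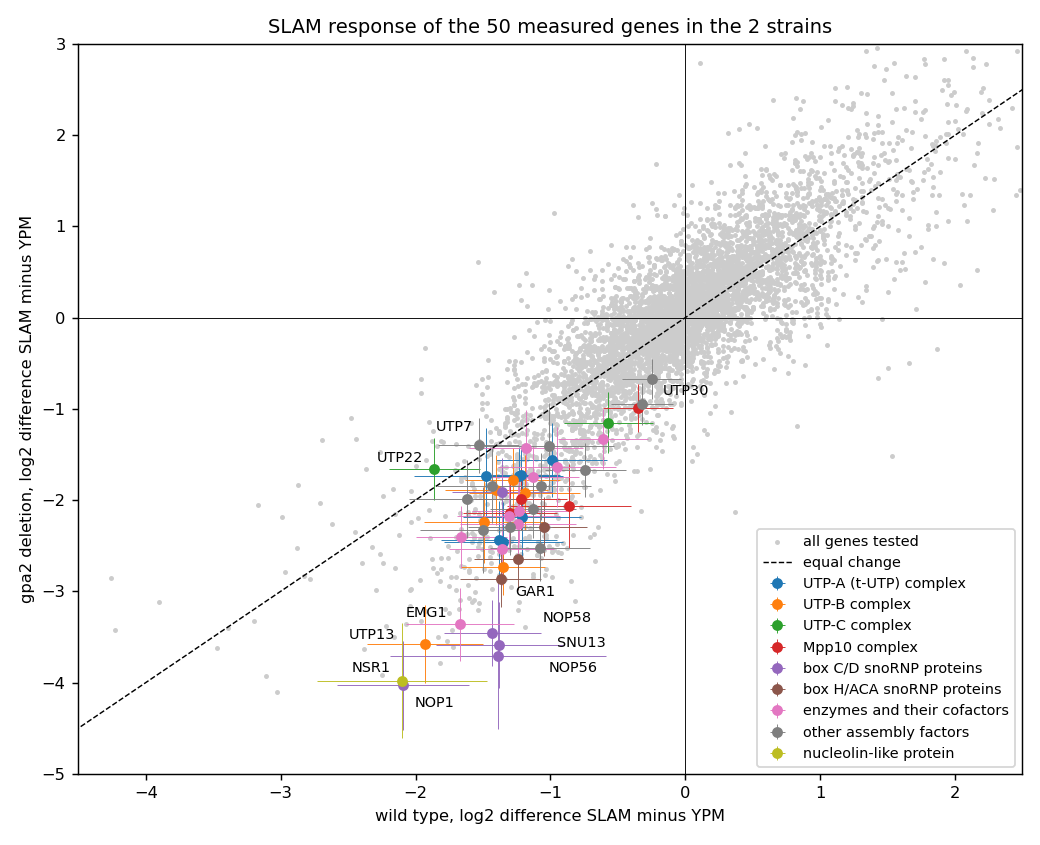
Log2 difference between SLAM and YPM in the wild type (x axis) and the deletion strain (y axis) for the 50 measured genes, coloured by role with standard errors, and for all genes tested (grey). Axes end short of the largest rises of other genes. All but UTP22 and UTP7 lie below the dashed line of equal change, and the box C/D proteins NOP1, NOP56, NOP58 and SNU13, with NSR1, UTP13 and EMG1, lie lowest.

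The core proteins of the box C/D snoRNPs had the lowest median of the role groups with more than 1 gene in the deletion strain, -3.59 over 5 genes, all of which fell. In the wild type 3 of the 5 fell, with a median of -1.39. NOP1, the fibrillarin methyltransferase of these particles, read 10.90, 11.24 and 11.14 in wild-type YPM, 9.70, 9.82 and 7.49 in wild-type SLAM, 10.93, 11.06 and 10.19 in deletion YPM, and 6.79, 6.61 and 6.70 in deletion SLAM. All SLAM arrays lay below all YPM arrays of their strain, and the 3 deletion SLAM arrays lay close together, below every wild-type one. NOP1 fell 16.3-fold in the deletion strain (log2 -4.03, SE 0.49, adjusted p = 0.000425) and 4.26-fold in the wild type (log2 -2.09, SE 0.49, adjusted p = 0.0229). The wild-type estimate was -1.34 without wild-type SLAM replicate 3 (adjusted p = 0.0371).

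NOP56 and NOP58 encode the paired scaffold proteins of the same particle. NOP56 read 10.10, 10.24 and 10.02 in wild-type YPM, 8.29, 11.22 and 6.67 in wild-type SLAM, 9.97, 10.48 and 9.76 in deletion YPM, and 5.96, 6.45 and 6.67 in deletion SLAM. Wild-type SLAM replicate 2 was the highest of all 12 arrays, replicate 3 of that group was low, and the wild-type media overlapped. NOP56 fell 13.1-fold in the deletion strain (log2 -3.71, SE 0.80, adjusted p = 0.00525). Its wild-type change of -1.39 (SE 0.80) did not pass (adjusted p = 0.256), and it was -2.64 (adjusted p = 0.00231) without wild-type SLAM replicate 2 and -0.36 (adjusted p = 0.774) without replicate 3 of that group.

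NOP58 read 12.42, 12.50 and 12.55 in wild-type YPM, 11.36, 11.78 and 10.04 in wild-type SLAM, 12.36, 12.55 and 12.05 in deletion YPM, and 8.78, 8.63 and 9.16 in deletion SLAM. No SLAM array reached a YPM array, and the deletion SLAM arrays lay below the wild-type ones. NOP58 fell 11-fold in the deletion strain (log2 -3.46, SE 0.36, adjusted p = 0.000243) and 2.7-fold in the wild type (log2 -1.43, SE 0.36, adjusted p = 0.0294), where it was -0.92 without wild-type SLAM replicate 3 (adjusted p = 0.0796). The probe set used can share targets with other genes. All 4 NOP58 probe sets were lower in SLAM, by -1.43 to -1.82 in the wild type and -2.59 to -3.63 in the deletion strain.

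SNU13, which binds the kink-turn of box C/D RNAs and is also a spliceosomal protein, read 11.80, 12.47 and 12.35 in wild-type YPM, 11.43, 11.46 and 9.57 in wild-type SLAM, 12.05, 12.17 and 11.48 in deletion YPM, and 8.72, 7.63 and 8.58 in deletion SLAM. The 2 media did not overlap in either strain, though 2 of the wild-type SLAM arrays came close to the lowest YPM array. SNU13 fell 12-fold in the deletion strain (log2 -3.59, SE 0.47, adjusted p = 0.000583), and its wild-type change of -1.38 (SE 0.47) did not pass (adjusted p = 0.07) and was -0.76 without wild-type SLAM replicate 3. RRP9, the protein specific to the U3 snoRNP, read 8.42, 8.86 and 8.57, then 7.42, 7.75 and 6.60, then 8.20, 8.48 and 7.05, and last 6.17, 6.07 and 5.75, in the same order of groups. Its SLAM arrays lay below its YPM arrays in both strains, with deletion YPM replicate 3 well below its group. RRP9 fell 3.76-fold in the deletion strain (log2 -1.91, SE 0.37, adjusted p = 0.00334) and 2.56-fold in the wild type (log2 -1.36, SE 0.37, adjusted p = 0.0365), the smallest change of the 5 in each strain.

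**Figure D3:**
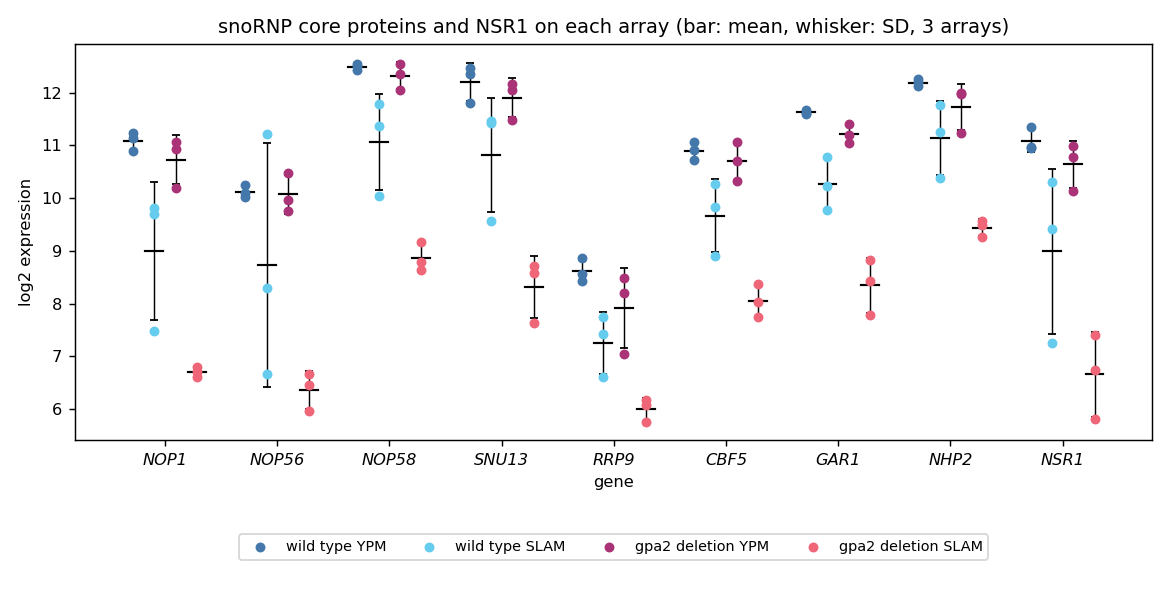
Log2 expression of the measured snoRNP core proteins and NSR1 on each array (points), with the mean (bar) and SD (whisker) of 3 arrays per group. Levels of different genes are not comparable between probe sets. For NOP1, NOP58, SNU13, RRP9, CBF5, GAR1 and NHP2 the 3 deletion SLAM points lie below all others, and NOP56 in wild-type SLAM spans from 6.67 to 11.22.

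Of the box H/ACA proteins, CBF5, GAR1 and NHP2 all fell in the deletion strain (median -2.65), and CBF5 and GAR1 fell in the wild type (median -1.24). CBF5, the pseudouridine synthase, read 10.91, 11.07 and 10.72 in wild-type YPM, 9.83, 10.26 and 8.91 in wild-type SLAM, 10.71, 11.06 and 10.33 in deletion YPM, and 8.03, 7.74 and 8.38 in deletion SLAM. The groups stepped down without overlap from YPM to wild-type SLAM to deletion SLAM. CBF5 fell 6.27-fold in the deletion strain (log2 -2.65, SE 0.33, adjusted p = 0.000425) and 2.36-fold in the wild type (log2 -1.24, SE 0.33, adjusted p = 0.0325). The latter was -0.86 without wild-type SLAM replicate 3 (adjusted p = 0.121).

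GAR1, a core protein needed for pseudouridylation, read 11.60, 11.67 and 11.62 in wild-type YPM, 10.23, 10.78 and 9.78 in wild-type SLAM, 11.20, 11.41 and 11.04 in deletion YPM, and 8.43, 7.79 and 8.83 in deletion SLAM. It showed the same steps, and the 3 deletion YPM arrays also lay below the 3 wild-type YPM arrays. GAR1 fell 7.29-fold in the deletion strain (log2 -2.87, SE 0.30, adjusted p = 0.000243) and 2.58-fold in the wild type (log2 -1.37, SE 0.30, adjusted p = 0.0176). NHP2, the H/ACA relative of SNU13, read 12.25, 12.21 and 12.12, then 11.26, 11.77 and 10.39, then 12.00, 11.97 and 11.23, and last 9.57, 9.27 and 9.49, in the same order. Its deletion SLAM arrays were again the lowest of the 12, without overlap. NHP2 fell 4.89-fold in the deletion strain (log2 -2.29, SE 0.32, adjusted p = 0.000756), and its wild-type change of -1.05 (SE 0.32) missed the threshold (adjusted p = 0.0508) and was -0.68 without wild-type SLAM replicate 3.

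NSR1, a nucleolin-like protein needed for processing of the ribosomal RNA precursor, read 10.97, 11.34 and 10.95 in wild-type YPM, 10.30, 9.41 and 7.25 in wild-type SLAM, 10.78, 10.99 and 10.13 in deletion YPM, and 7.41, 5.82 and 6.74 in deletion SLAM. Wild-type SLAM replicate 3 lay among the deletion SLAM arrays, so the strains overlapped in SLAM, while the media did not overlap in either strain. NSR1 fell 15.8-fold in the deletion strain (log2 -3.98, SE 0.63, adjusted p = 0.00128) and 4.29-fold in the wild type (log2 -2.10, SE 0.63, adjusted p = 0.0481), and the latter was -1.23 without replicate 3 (adjusted p = 0.141).

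The UTP-A proteins, which open assembly on the precursor, fell in the deletion strain in all 7 cases (median -1.74), and UTP4 and UTP5 fell in the wild type (median -1.23). UTP15 read 8.61, 9.05 and 8.70 in wild-type YPM, 8.11, 7.73 and 6.38 in wild-type SLAM, 8.68, 8.84 and 7.69 in deletion YPM, and 6.08, 5.53 and 6.30 in deletion SLAM. The deletion SLAM arrays lay below all others, with wild-type SLAM replicate 3 just above them. UTP15 fell 5.41-fold in the deletion strain (log2 -2.44, SE 0.43, adjusted p = 0.0021), and its wild-type change of -1.38 (SE 0.43) missed the threshold (adjusted p = 0.0529) and was -0.87 without wild-type SLAM replicate 3. UTP10, with the smallest mean change of this complex, read 9.16, 9.67 and 8.92, then 8.93, 7.76 and 8.08, then 9.29, 9.73 and 9.18, and last 7.37, 7.35 and 8.82, in the same order of groups. Deletion SLAM replicate 3 stayed near the YPM level. UTP10 fell in the deletion strain (log2 -1.56, SE 0.41, adjusted p = 0.0149), a call that ended without deletion YPM replicate 2 or deletion SLAM replicate 1, and its wild-type change was -0.99 (SE 0.41, adjusted p = 0.122). The remaining members UTP8, UTP9 and NAN1 changed by -2.46, -1.74 and -2.19 in the deletion strain.

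UTP-B, which binds after UTP-A, fell in all 6 members in the deletion strain (median -2.08) and in 4 in the wild type (median -1.38), the exceptions there being PWP2 and UTP6. UTP13, a WD-repeat protein, read 8.82, 9.09 and 9.04 in wild-type YPM, 7.73, 7.48 and 5.95 in wild-type SLAM, 8.93, 9.01 and 8.22 in deletion YPM, and 5.21, 4.57 and 5.63 in deletion SLAM. The deletion SLAM readings averaged 5.14, under the background mark of 5.60, so their fold is a bound. UTP13 fell at least 8.65-fold in the deletion strain (log2 -3.58, SE 0.43, adjusted p = 0.000356) and 3.8-fold in the wild type (log2 -1.93, SE 0.43, adjusted p = 0.0187).

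UTP18, the UTP-B protein that recruits the exosome helicase Mtr4, read 9.09, 8.99 and 9.08 in wild-type YPM, 8.37, 7.66 and 7.30 in wild-type SLAM, 8.95, 8.92 and 7.75 in deletion YPM, and 6.62, 6.48 and 7.17 in deletion SLAM. The media did not overlap, and deletion YPM replicate 3 lay among the wild-type SLAM readings. UTP18 fell 3.44-fold in the deletion strain (log2 -1.78, SE 0.35, adjusted p = 0.00353) and 2.43-fold in the wild type (log2 -1.28, SE 0.35, adjusted p = 0.0369). DIP2, the partner of UTP13, read 8.53, 8.47 and 8.20, then 7.46, 7.25 and 6.43, then 8.23, 8.64 and 8.07, and last 5.37, 5.25 and 6.14, in the same order. Its YPM arrays overlapped between the strains and its SLAM arrays did not. DIP2 fell at least 5.8-fold in the deletion strain (log2 -2.73, SE 0.31, adjusted p = 0.000304) and 2.55-fold in the wild type (log2 -1.35, SE 0.31, adjusted p = 0.0207).

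UTP22 and RRP7, the 2 of the 50 genes grouped here as UTP-C, both fell in the deletion strain (log2 -1.66, SE 0.34 and -1.15, SE 0.33). UTP22 fell in the wild type. UTP22 was singled out after its values were seen, because it did not change more in the deletion strain. It read 9.27, 9.38 and 9.30 in wild-type YPM, 8.01, 6.80 and 7.56 in wild-type SLAM, 9.30, 9.69 and 8.90 in deletion YPM, and 7.35, 7.31 and 8.23 in deletion SLAM. The SLAM arrays of the 2 strains overlapped. UTP22 fell 3.63-fold in the wild type (log2 -1.86, SE 0.34, adjusted p = 0.0106) and 3.16-fold in the deletion strain (adjusted p = 0.00407). The 6 UTP22 probe sets disagreed in size, from -0.07 to -1.86 in the wild type and -0.21 to -2.16 in the deletion strain, and all but the one used had the lower estimate in the deletion strain.

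The 4 Mpp10 complex proteins, which help U3 pair with the precursor, fell in the deletion strain (median -2.02), and IMP3 and IMP4 fell in the wild type (median -1.04). IMP3 read 8.77, 8.99 and 8.56 in wild-type YPM, 8.02, 7.81 and 6.58 in wild-type SLAM, 8.38, 8.27 and 8.05 in deletion YPM, and 6.34, 5.61 and 6.32 in deletion SLAM. The deletion arrays lay below the wild-type arrays in both media, without overlap. IMP3 fell 4.42-fold in the deletion strain (log2 -2.14, SE 0.35, adjusted p = 0.00143) and 2.47-fold in the wild type (log2 -1.30, SE 0.35, adjusted p = 0.0325), and the latter was -0.86 without wild-type SLAM replicate 3 (adjusted p = 0.11). MPP10, the scaffold of the complex, read 8.06, 7.97 and 8.25, then 7.76, 8.04 and 7.44, then 8.15, 8.01 and 7.84, and last 6.89, 6.60 and 7.54, in the same order of groups. Only the deletion SLAM arrays stood clear of YPM. MPP10 fell 1.99-fold in the deletion strain (log2 -0.99, SE 0.26, adjusted p = 0.0134), a call that ended without deletion YPM replicate 1 or deletion SLAM replicate 1, and its wild-type change was -0.35 (SE 0.26, adjusted p = 0.378).

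All 10 enzymes and cofactors fell in the deletion strain (median -2.15), and 6 fell in the wild type (median -1.23): the GTPase BMS1 and its partner RCL1, the acetyltransferase KRE33, the methyltransferase EMG1, the helicase ROK1, and UTP25. EMG1, which methylates a pseudouridine of the small subunit RNA, read 9.92, 10.45 and 9.98 in wild-type YPM, 8.97, 8.86 and 7.52 in wild-type SLAM, 9.98, 10.19 and 9.04 in deletion YPM, and 6.66, 6.32 and 6.16 in deletion SLAM. Deletion SLAM arrays lay below every other array. EMG1 fell 10.2-fold in the deletion strain (log2 -3.36, SE 0.40, adjusted p = 0.000336) and 3.17-fold in the wild type (log2 -1.67, SE 0.40, adjusted p = 0.0232).

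ECM16, the DEAH helicase that displaces U3, changed least of the enzymes, and read 8.30, 8.28 and 8.32 in wild-type YPM, 7.85, 7.88 and 7.33 in wild-type SLAM, 8.42, 8.46 and 8.10 in deletion YPM, and 6.90, 6.27 and 7.82 in deletion SLAM. The media did not overlap in either strain, and deletion SLAM replicate 3 lay among the wild-type SLAM readings. ECM16 fell 2.51-fold in the deletion strain (log2 -1.33, SE 0.33, adjusted p = 0.0107), and its wild-type change was -0.61 (SE 0.33, adjusted p = 0.22). UTP14, the activator of this helicase, changed by -2.26 (SE 0.43) in the deletion strain, where it fell, and by -1.24 (SE 0.43, adjusted p = 0.0717) in the wild type. The wild-type estimates of RCL1 and UTP25, -1.36 and -1.31, were -0.84 and -0.87 without wild-type SLAM replicate 3 and then did not pass.

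The 12 other assembly factors fell in the deletion strain (median -1.85), and UTP7, SOF1, ENP1, ENP2 and LCP5 fell in the wild type (median -1.10). NOC4, which acts as a pair with NOP14, read 9.02, 9.23 and 9.02 in wild-type YPM, 8.49, 7.84 and 6.45 in wild-type SLAM, 8.91, 8.83 and 8.30 in deletion YPM, and 6.27, 5.66 and 7.12 in deletion SLAM. The SLAM arrays of the strains overlapped through wild-type replicate 3 and deletion replicate 3. NOC4 fell 5.03-fold in the deletion strain (log2 -2.33, SE 0.47, adjusted p = 0.00379), and its wild-type change of -1.50 (SE 0.47) did not pass (adjusted p = 0.0548) and was -0.92 without wild-type SLAM replicate 3. UTP30, a protein dispensable for growth, read 7.95, 8.24 and 8.00, then 8.09, 7.59 and 7.77, then 8.19, 7.97 and 7.81, and last 7.54, 7.43 and 6.99, in the same order of groups. Its groups lay within 1 narrow band, apart only in deletion SLAM. UTP30 fell 1.59-fold in the deletion strain (log2 -0.67, SE 0.22, adjusted p = 0.0417), a call that ended with any of 9 single arrays left out.

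UTP20, a large HEAT-repeat protein, was singled out after its values were seen. It read 7.45, 7.45 and 6.88 in wild-type YPM, 7.08, 4.96 and 6.72 in wild-type SLAM, 7.93, 7.92 and 7.57 in deletion YPM, and 5.86, 6.26 and 7.07 in deletion SLAM. On the probe set used, it was the member whose 3 deletion YPM arrays all lay above the wild-type ones. Its brightest probe set that does not share targets had YPM means of 7.21 in the wild type and 7.17 in the deletion strain. UTP20 fell in the deletion strain (log2 -1.41, SE 0.48, adjusted p = 0.0441), a call that ended with any of 8 single arrays left out, and its probe set can share targets. Its 10 probe sets ranged from 0.10 to -1.69 in the wild type and from -0.05 to -1.53 in the deletion strain. The brightest that does not share targets changed by -1.69 in the wild type and -0.99 in the deletion strain, the smaller estimate being in the deletion strain.

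In YPM none of the 50 genes differed between the strains by the test (limma, 0 at an unadjusted p below 0.05), where 0.0177% of all genes passed as lower, GPA2 alone, and 0% as higher. The median difference, deletion minus wild type, was -0.30 (all genes -0.07), and 45 of the 50 estimates were below zero. The arrays did not overlap for 12 genes with the deletion strain lower, against 13.2% of all genes. They did not overlap for UTP20, on the probe set used, with the deletion strain higher, against 5.99%. The median difference was -0.10 without deletion YPM replicate 3, which was the lowest of its group for 49 of the 50 genes (39.1% of all genes).

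The smallest p values of this comparison belonged to BFR2, RRP9, UTP5, LCP5 and UTP6. BFR2, a processome protein that binds LCP5, read 7.69, 7.65 and 7.49 in wild-type YPM, 7.01, 7.00 and 5.59 in wild-type SLAM, 7.06, 7.37 and 6.29 in deletion YPM, and 4.46, 4.24 and 4.46 in deletion SLAM. The deletion arrays were the lower in each medium, without overlap. BFR2 differed by -0.71 in YPM (SE 0.37, adjusted p = 0.994), with replicate 3 furthest, and its SLAM change was at least 2.48-fold in the deletion strain (log2 -2.52, SE 0.37, adjusted p = 0.000879).

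UTP5, of the UTP-A complex, read 9.50, 9.24 and 9.20 in wild-type YPM, 8.68, 7.66 and 7.91 in wild-type SLAM, 8.69, 9.25 and 8.25 in deletion YPM, and 7.16, 6.61 and 7.19 in deletion SLAM. LCP5 read 7.98, 8.01 and 7.95, then 7.32, 6.49 and 5.87, then 7.76, 7.57 and 6.55, and last 5.52, 4.86 and 5.95. UTP6, of UTP-B, read 7.18, 7.40 and 7.11, then 6.46, 6.11 and 4.64, then 6.88, 6.92 and 5.69, and last 4.31, 3.78 and 4.67, in the same order. In YPM the strains overlapped for UTP5 and not for LCP5 and UTP6, and deletion replicate 3 was the lowest each time. The YPM differences were -0.58 (SE 0.32), -0.69 (SE 0.41) and -0.73 (SE 0.45), each with adjusted p = 0.994.

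After 2 h in SLAM, 11 of the 50 genes were lower in the deletion strain than in the wild type and none was higher, against 1.73% of all genes lower and 1.08% higher. They were NOP1, NOP58 and SNU13 of the box C/D particle, CBF5, GAR1 and NHP2 of the H/ACA particle, DIP2 and UTP13 of UTP-B, EMG1, SOF1 and BFR2. The median difference over the 50 was -1.21 (all genes -0.03), from SNU13 at -2.51 to UTP22 at 0.17. The arrays of 25 genes did not overlap, all with the deletion strain lower, against 10.6% of all genes.

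GAR1 was 3.76-fold lower (log2 -1.91, SE 0.30, adjusted p = 0.0201), NOP58 4.61-fold (log2 -2.20, SE 0.36, adjusted p = 0.0283) and SNU13 5.7-fold (log2 -2.51, SE 0.47, adjusted p = 0.0311). NHP2 was 3.25-fold lower (log2 -1.70, SE 0.32, adjusted p = 0.0311), and BFR2, whose deletion SLAM mean was under the background mark, at least 1.91-fold (log2 -2.15, SE 0.37, adjusted p = 0.0311). All 3 deletion SLAM arrays lay below all 3 wild-type SLAM arrays for each of these 5 genes. NSR1 and NOP56 had like estimates, -2.33 (SE 0.63) and -2.37 (SE 0.80), and did not pass (adjusted p = 0.0622 and 0.105).

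This count too rested on single arrays. It was 0 without deletion SLAM replicate 1, 1 without wild-type YPM replicate 2 or 3 or wild-type SLAM replicate 2, 2 without deletion YPM replicate 1, 3 without deletion SLAM replicate 2, and 6 without wild-type YPM replicate 1, wild-type SLAM replicate 1 or deletion YPM replicate 2. It was 26 without wild-type SLAM replicate 3 and 17 without deletion SLAM replicate 3. The GAR1 call ended with 1 of the 12 arrays left out, and the NOP1 call with 10. The median difference stayed between -1.44 and -0.89. Shares of all genes that passed in these settings are not given here.

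The strains' responses to SLAM were compared with each other through the difference of the 2 changes. None of the 50 genes passed, nor did any of the 5656 (limma, smallest adjusted p among the 50 genes 0.98), while 12 of the 50 and 130 of all genes were lower at an unadjusted p below 0.05. The estimate was below zero, a larger fall in the deletion strain, for 48 of the 50 genes and for 2603 of the 5656. The median of the estimate was -0.81 over the 50 and 0.04 over all genes, and over the 50 -1.17 to -0.58 with 1 array left out. The estimates were -2.03 for NOP58 (95% interval -3.15 to -0.91), -1.50 for GAR1 (-2.41 to -0.59), -2.20 for SNU13 (-3.66 to -0.75), -1.37 for DIP2 (-2.33 to -0.41) and -1.41 for CBF5 (-2.42 to -0.40). These intervals are not adjusted for the number of genes.

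The other direction was seen for UTP22 and UTP7, at 0.20 (95% interval -0.85 to 1.24) and 0.12 (-0.80 to 1.05). For UTP22 it was seen only on the probe set used, and its other probe sets had the lower estimate in the deletion strain. UTP7, a WD-repeat protein, read 7.89, 8.35 and 8.09 in wild-type YPM, 7.14, 6.43 and 6.18 in wild-type SLAM, 7.76, 7.86 and 7.31 in deletion YPM, and 6.20, 5.82 and 6.70 in deletion SLAM, and it was singled out after its values were seen. Its SLAM arrays overlapped between the strains. Without wild-type SLAM replicate 3, NOP1 (log2 -2.69, SE 0.36) and NOP58 (-2.54, SE 0.33) passed in this comparison, each with adjusted p = 0.0363.

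**Figure D4:**
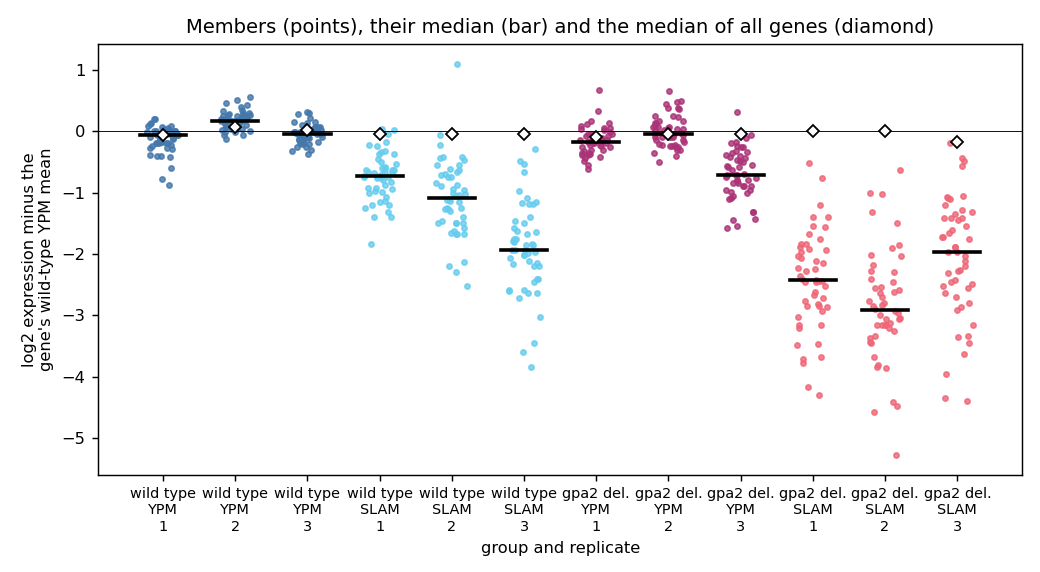
Each point is 1 of the 50 genes on 1 array, as log2 expression minus its wild-type YPM mean, with the median of the 50 (bar) and of all genes (diamond). The bars lie at -0.73, -1.09 and -1.93 in wild-type SLAM and at -2.43, -2.91 and -1.97 in deletion SLAM, and deletion YPM replicate 3 lies at -0.72, below the other YPM arrays.

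In 3 of the 4 groups, 41 to 49 of the 50 genes had their lowest reading on 1 array. That array was the lowest for 33.5% to 39.1% of all genes. The median of the 50, from the wild-type YPM mean, was -0.73, -1.09 and -1.93 on the wild-type SLAM arrays and -2.43, -2.91 and -1.97 on the deletion SLAM arrays, so the lowest wild-type array came close to the highest deletion array. Wild-type SLAM replicate 3 was the lowest of its group for 42 of the 50 genes (33.5% of all genes), deletion YPM replicate 3 for 49 (39.1%) and deletion SLAM replicate 2 for 41 (35.5%). In wild-type YPM, replicate 1 was the lowest for 28 of the 50 and for 50% of all genes. The median SD between arrays was 0.69 for the 50 genes and 0.39 for all genes in wild-type SLAM, 0.49 and 0.34 in deletion SLAM, 0.36 and 0.23 in deletion YPM, and 0.19 and 0.21 in wild-type YPM. All-gene medians of the same arrays lay between -0.18 and 0.07, and the part of this array-to-array spread in the strain comparison was not tested.

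Low readings limited some folds. In deletion SLAM 13 of the 50 genes had a mean at or under 5.60, and in wild-type SLAM UTP4, PWP2 and KRE33 did. In the deletion strain RCL1 fell at least 4.93-fold and UTP8 at least 4.56-fold. KRE33 fell at least 2.02-fold in the wild type (log2 -1.66, SE 0.34) and at least 1.8-fold in the deletion strain (log2 -2.40, SE 0.34).

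Other genes of the pathway, listed by role, gave smaller counts in the wild type than in the deletion strain for most lists. The shares of all genes that passed as lower were 7.34% in the wild type and 14.8% in the deletion strain. Of 23 other small subunit processome proteins, 5 fell in the wild type and 19 in the deletion strain (medians -1.02 and -1.41). RRP5, which acts in both subunits' assembly, had the lowest change in each (log2 -1.57, SE 0.32 and -3.10, SE 0.32). Of 16 late small subunit maturation factors, 3 and 10 fell (medians -0.70 and -1.09), among them the dimethylase DIM1 (-1.16, SE 0.23 and -2.39, SE 0.23) and RRP12 (-1.57, SE 0.38 and -2.38, SE 0.38). The RRP5, DIM1 and RRP12 calls of the wild type each ended without wild-type YPM replicate 2 or wild-type SLAM replicate 3, those of RRP5 and RRP12 also without wild-type YPM replicate 3, and that of RRP12 without wild-type YPM replicate 1, and their deletion strain calls held with any 1 array left out.

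Of 13 proteins that assemble snoRNPs or process snoRNAs, 2 fell in each strain, with medians of -0.42 in the wild type and -0.46 in the deletion strain. With 7.34% and 14.8% of all genes lower in the 2 strains, counts this small say little about the list. SRP40, a nucleolar chaperone, fell in both (log2 -1.66, SE 0.41 and -1.76, SE 0.41), and its wild-type call ended with any of 4 single arrays left out. RVB1, a helicase-like subunit of the R2TP chaperone partner complex, fell in the deletion strain (log2 -1.18, SE 0.28), and SHQ1, the CBF5 chaperone, in the wild type (-0.89, SE 0.27), the latter call ending with any of 9 single arrays left out. Of the 4 casein kinase 2 subunits, CKA1 fell in the deletion strain (log2 -0.76, SE 0.26), with the call ending for any of 10 arrays. This count too is small beside the 14.8% of all genes.

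Large subunit assembly factors, the counterpart machinery, fell in 30 of 65 cases in the wild type and 60 of 65 in the deletion strain. Their medians, -1.17 and -2.00, were close to those of the small subunit genes, -1.29 and -2.08, and the difference between the lists was not tested. ARX1, an export factor of the large subunit, had the lowest change in each strain (log2 -2.07, SE 0.46 and -3.36, SE 0.46), and its wild-type call ended with any of 3 single arrays left out. In SLAM 8 of the 65 were lower in the deletion strain, against 1.73% of all genes, with a median over the list of -1.15.

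**Figure D5:**
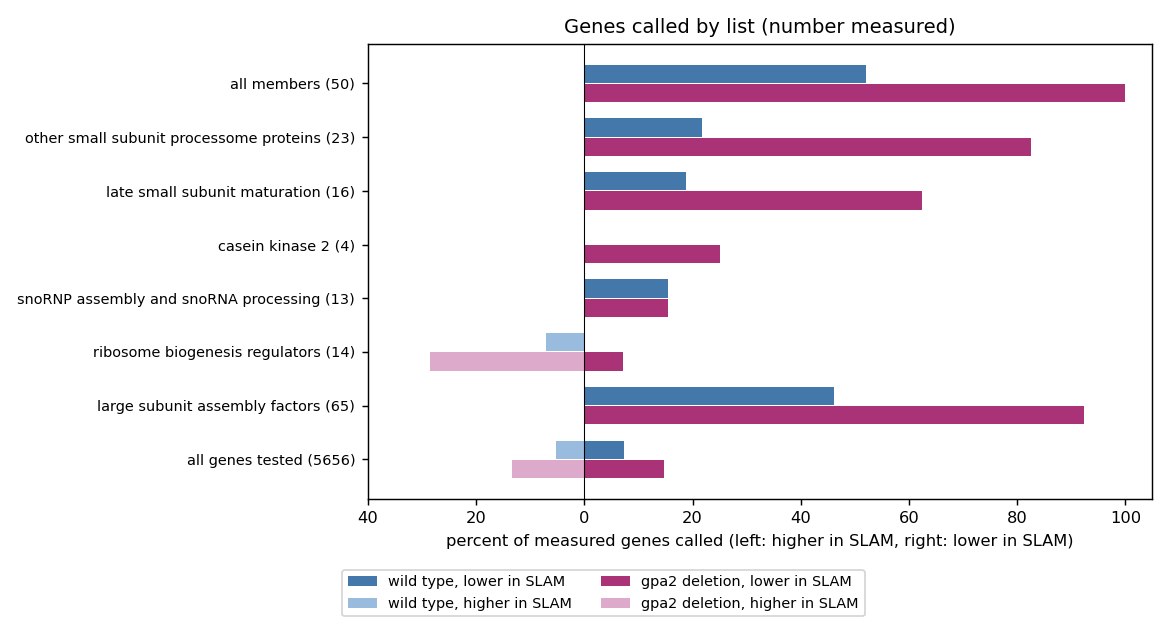
Percent of the measured genes of each list that passed as lower in SLAM (right of zero) or higher (left of zero) in the wild type (blue) and the deletion strain (purple), with the number measured in brackets. The 50 genes described here and the large subunit assembly factors have the longest bars, and the regulators are the only list besides all genes with bars on the left.

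Of 14 known regulators of ribosome biogenesis genes, 1 rose in the wild type, and 4 rose and 1 fell in the deletion strain. Of all genes, 5.23% passed as higher in the wild type, and 13.4% as higher and 14.8% as lower in the deletion strain. Counts this small say little about the regulators as a list. The TORC1 target kinase gene SCH9 rose in both strains (log2 0.76, SE 0.19 and 0.72, SE 0.19). In the deletion strain TOR1 (1.01, SE 0.25), the repressor gene STB3 (0.79, SE 0.23) and the corepressor gene CRF1 (1.32, SE 0.42) also rose, and TOD6, a repressor of this gene group, fell (log2 -1.52, SE 0.51). The activator SFP1 differed by -0.13 (SE 0.27) and 0.09 (SE 0.27) and did not pass. In the deletion strain the SCH9 call ended without deletion YPM replicate 2, the TOR1 call without deletion YPM replicate 1, and the STB3, CRF1 and TOD6 calls with any of 4, 5 and 7 single arrays. In the wild type the SCH9 call ended with any of 5.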

How the data were processed

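Log2 expression values of 9335 probe sets were deposited by the authors. GCOS 1.2, MAS5 and RMA are named in the submitters' processing notes, and the role of each is not given in the sources used here. The values were used without further scaling. Control probe sets (60) and those with several gene symbols (328) or none (2443) were left out. The platform annotation named the genes, and the probe set with the highest mean stood for each of 315 genes with more than 1. Group means were estimated in a single linear model over the 12 arrays (limma 3.58.1, R 4.3.3, with 8 residual and 4.11 prior degrees of freedom). Tests were two-sided, adjusted by Benjamini-Hochberg over 5656 genes in each of 5 comparisons. On simulated data of the wild-type comparison, 79% of 100 genes changed by 2 on the log2 scale were recovered, and 25% of 100 changed by 1. Folds are bounds where the lower mean was at or under 5.60. Values on every array are given for the snoRNP core proteins, NSR1, the largest and smallest mean change of each other role group of 3 or more members, and up to 5 smallest p values of each strain comparison. Members and lists were chosen with earlier results of these data known. Sequences were not used here.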

Additional observations from a re-analysis of the deposited data

How the results depend on the processing

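No paired analysis was run, because the titles carry running numbers that no 2 samples share and no label states a pairing. For the genes lower in wild-type SLAM (26), a floor at the 10th percentile gave 15, leaving out the dimmest genes 17 of 29 measured, only the 6 arrays of the comparison 12, and adjusted p below 0.01 gave 0. Of all genes, 12.6% were called in either direction in the main setting, and 11.3%, 14.4%, 6.65% and 1.24% in these. With 1 array left out the count of the 50 genes ran from 0 to 33, where 1.1% to 25% of all genes were called. In the deletion strain (50 lower), leaving out the dimmest genes gave 29 of 29, the only ones then measured, and 1 array left out gave 43 to 50. The floor gave 48, without UTP9 and UTP20, and adjusted p below 0.01 gave 41. UTP20 alone was lost when probe sets that can share targets were left out, and when all probe sets of a gene were averaged. Between strains in SLAM (11 lower), the floor gave 7, only the 6 arrays 0, leaving out wild-type SLAM replicate 2 and deletion YPM replicate 3 together 5, adjusted p below 0.01 gave 0, and 1 array left out 0 to 26. For the difference of responses the count ran from 0 to 2. The cause was not tested, except that fewer arrays or genes enter some of these settings. Median changes kept their sign under each alternative, at -1.54 to -0.92, -2.32 to -1.82, -0.44 to -0.10, -1.44 to -0.89 and -1.17 to -0.58 with 1 array left out in the 5 comparisons. The 3 arrays a group limit what could be detected, and no detection calls were used.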
